A study of Mus musculus with 41 samples.

Results

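The proteasome genes of the mouse were followed here in ribosome footprints and in mRNA. They are the genes with a protein_coding transcript whose symbol begins with *Psm*, one of the letters a to g and a number, without the 3 interferon-inducible subunits *Psmb8*, *Psmb9* and *Psmb10*. By this rule 50 genes matched and 47 remained, of 22438 genes with footprint rows and 55385 genes with RNA transcripts. The 47 fall into 7 alpha subunits, 7 beta subunits, 6 ATPases and 11 non-ATPase subunits of the regulatory particle, 7 assembly chaperones, 6 activators and inhibitors, and 2 tissue-restricted subunits. *Psmc3ip*, a recombination factor named for its binding to a proteasome ATPase, carries the symbol without being a subunit and was counted apart.

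The 26S proteasome degrades proteins that carry ubiquitin chains. Its 20S core is a barrel of alpha rings, which gate the entrance, and beta rings, of which *Psmb5*, *Psmb6* and *Psmb7* encode the constitutive catalytic subunits. The 19S particle at the ends of the barrel recognises, unfolds and feeds substrates with a ring of ATPases (*Psmc* genes) and a set of non-ATPase subunits (*Psmd* genes). Dedicated chaperones assemble the core and the base, and other activators, encoded by *Psme* genes, can replace the 19S particle.

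The study asked how cells respond when translation-dependent quality control fails. HBS1L and its partner PELO (pelota) release stalled ribosomes, and UPF2 acts in nonsense-mediated decay (NMD), the removal of transcripts with premature stop codons. Of the 41 libraries, 30 were ribosome footprints, which are the mRNA fragments that translating ribosomes protect, and 11 were mRNA from mouse embryonic fibroblasts (MEFs). Footprints came from whole C57BL/6NJ embryos at E8.5 (Hbs1l -/- against wild type, 3 libraries each, embryos pooled within a library), and from C57BL/6J cerebella at P14 (Atoh-Cre; Hbs1l cKO against Atoh-Cre; Hbs1l +/+, 3 mice each). By the study's methods the *Hbs1l* cKO genotype, in cerebella and MEFs alike, is Hbs1l fl/-, with a null allele in every cell, and those of *Pelo* and *Upf2* in MEFs are fl/fl. Atoh-Cre deletes the floxed allele in granule cells, so the other cerebellar cells of the mutants keep a single working allele while the controls are +/+. The remaining footprints came from C57BL/6 MEFs carrying CAG-Cre ER with Hbs1l cKO, Pelo cKO or Upf2 cKO alleles. Each of these genotypes had 3 libraries and 3 CAG-Cre ER controls in its own labelled batch. The MEF mRNA formed another batch, with 3 control, 3 *Hbs1l*, 2 *Pelo* and 3 *Upf2* libraries, from dishes other than those used for footprints. Every MEF culture, controls included, had been treated with Tamoxifen (4-OHT), was isolated at E13.0 from a single embryo and, like the cerebella, carried the B6J form of the brain tRNA gene *n-Tr20* by the study's methods. The knockout genotypes are written below as *Hbs1l*-/-, *Pelo*-/- and *Upf2*-/-.

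Libraries held 5782990 to 25607974 counted footprints in MEFs, 10919139 to 22591768 in cerebella and 2634480 to 7298812 in embryos, and 22713643 to 86425762 estimated RNA counts. Footprints of *Hbs1l* fell in the *Hbs1l* mutants of all 3 sources (log2 fold change -3.6 in embryos, -1.5 in cerebella, -4.15 in MEFs), and *Pelo* fell by 3.78 in footprints and 6.15 in RNA of *Pelo*-/- MEFs. *Upf2* itself was higher, not lower, in the libraries labelled Upf2 cKO, at 112.6, 111.8 and 117.3 footprint counts per 1000000 (CPM) against 54.3, 48.48 and 57.71 in the controls, and by 1.33 on the log2 scale in RNA. These counts cover the whole gene and do not resolve deleted exons, so directions given for *Upf2*-/- rest on the label. In the RNA libraries so labelled, NMD transcripts made up 2.953 to 3.553% of the members' transcript level (TPM) against 2.205 to 2.595% in controls. All 8 fibroblast markers were present in MEFs, with a summed 43200 to 51270 footprint CPM, and all 4 granule cell markers were present in cerebella. In bulk samples such as these, fewer cells of a type and less RNA per cell cannot be told apart. Control MEF footprint libraries with the same number in different batches were near copies of each other (chi-square per gene of 1.1 to 1.18 over 9 pairs, against 3.91 to 12 over 27 pairs with different numbers), so the 3 footprint comparisons in MEFs are not independent of one another.

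NFE2L1 (NRF1), the factor that raises proteasome genes together when the proteasome is impaired, acts through the antioxidant response element. The core of this element, TGACNNNGC on either strand, lay within 250 bases before to 50 bases after the RefSeq start (GRCm38.p6) of 6 of the 39 members with a promoter sequence (15.4%). The share among 27025 genes was 14%. The CCAAT box, likewise on either strand, lay in 14 of the 39 (35.9%) against 41.1% of all genes. The 6 core matches are shown because this element is the one tied to joint regulation of proteasome genes. Each sequence reads 5′ to 3′ on the strand of the match, capitals mark the match, and no binding was measured.

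Psmb5: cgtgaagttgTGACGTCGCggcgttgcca
Psmb6: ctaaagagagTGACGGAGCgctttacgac
Psmd9: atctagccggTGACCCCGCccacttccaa
Psme4: gctcttctggTGACGCTGCagccgcagcg
Psmc6: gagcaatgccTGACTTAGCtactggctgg
Psmd12: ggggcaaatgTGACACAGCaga

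The *Psmb5* window is chr14:54618024-54618052 on the minus strand, the *Psmb6* window chr11:70525338-70525366 on the plus strand, and the *Psmd9* window chr5:123228149-123228177 on the plus strand. These 3 matches read along the gene and begin 47, 9 and 31 bases before the start. The *Psme4* window, chr11:30771758-30771786 on the minus strand, reads against the gene, as do those of *Psmc6* (chr14:45329587-45329615, minus strand) and *Psmd12* (chr11:107479278-107479299, minus strand, at the edge of the window).

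In control MEFs the counted footprints per length differed between subunits of the complex. Footprints per kilobase of coding sequence were highest on *Psmb2*, a beta subunit, at 522.5 ± 13.88 CPM per kilobase (SD, n = 3). Same-numbered footprint controls of the 3 batches, which were near copies, were averaged first, and n counts these averages. *Psmd8*, a non-ATPase subunit, followed at 436.6 ± 15.42. The median was 288.6 over the 14 core subunits, 173.3 over the 17 subunits of the 19S particle and 44.14 over the 7 chaperones. Within the core the coefficient of variation between subunits was 62.2% in footprints and 40.1% in mRNA (TPM). *Psma5* was lowest in the core with 23.77 CPM per kilobase beside an mRNA level of 120.2 TPM. *Psma3* and *Psmb3* were also low in footprints for their mRNA (34.8 and 56.35 CPM per kilobase, beside 208.0 and 372.3 TPM). The TPM of *Psma3* includes Psma3-203, a transcript annotated with a retained intron. It stood at 84.52, 104.2 and 108.7 TPM in the controls. *Psmb5* stood at 96.38 ± 1.671 beside 299.9 ± 23.16 TPM, whereas the other catalytic subunits, *Psmb6* and *Psmb7*, had 298.2 and 266.7. Levels of genes with a near-identical copy, such as *Psme2* and *Psme2b*, are uncertain, since reads shared between copies cannot be assigned. Whether copies bear on *Psma3*, *Psma5*, *Psmb3* and *Psmb5* was not tested.

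The order of the footprint levels was much the same in all 3 sources. Over 45 members, leaving out the tissue-restricted *Psma8* and *Psmb11*, the rank correlation of footprints per kilobase in MEFs with embryos was 0.92, with cerebella 0.96, and with MEF mRNA 0.69. These are correlations across genes, which share coding length and uniquely mapping sequence between sources and are not independent replicates. The lowest of the 45 in MEFs was *Psmc3ip*, with 6.375 ± 0.6783 CPM per kilobase against 49.75 in embryos. *Psmb11*, the thymic catalytic subunit, had 0 footprints in all MEF libraries, which allows at most 0.117 to 0.519 CPM by library for a count of 0. *Psma8*, the testis alpha subunit, did not exceed 0.5953 CPM in any MEF footprint library.

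**Figure D1:**
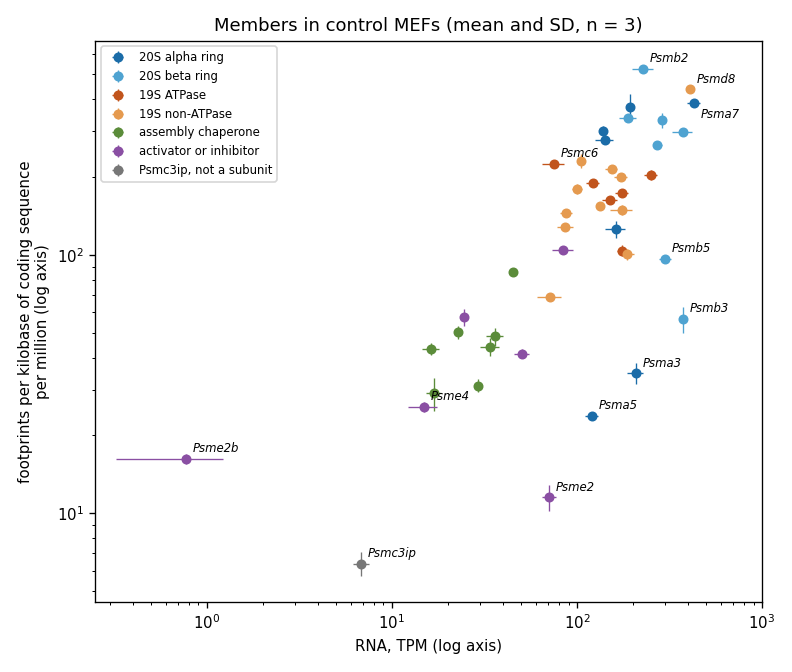
Each point is a member in control MEFs, with mRNA in TPM on the x axis and footprint CPM per kilobase of coding sequence on the y axis. Axes are logarithmic and colours give the role. The mRNA values are means of 3 libraries. Footprint values are means of 3 averages, each over the same-numbered controls of the 3 batches. *Psmb2* and *Psmd8* lie at the top, *Psmc3ip* and *Psme2* at the bottom, and *Psma5*, *Psma3*, *Psmb3* and *Psmb5* lie below other core subunits of like TPM.

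In *Pelo*-/- MEFs the mRNA of most proteasome genes fell, while the median of their footprint changes lay near 0. Of 44 members tested in RNA, 26 fell and 1 rose by edgeR's quasi-likelihood test (adjusted p at or under 0.05), and 41 had fold changes below 0. Over all genes tested, 16.6% were called lower and 15.5% higher. The median log2 fold change was -0.34 over the members. In footprints, 8 of 45 members rose and 2 fell, with a median of 0.02, against 22.9% of all genes called higher and 21.2% lower. Translation efficiency (TE), the footprint change relative to the RNA change, rose for 26 of 44 members and fell for 1, with a median of 0.42, where 24.3% of all genes were called higher and 20.4% lower. The median over all genes tested lay between -0.01 and 0.04 in each of these *Pelo*-/- comparisons.

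The 2 *Pelo*-/- RNA libraries gave the same picture. Their members lay a median 0.32 and 0.36 below the control mean on the log2 scale, and those of the 3 controls lay at 0.08, -0.11 and 0.04. In footprints the 3 *Pelo*-/- libraries lay at 0.01, 0.07 and -0.00. The number of calls depended on having both RNA libraries: without *Pelo* replicate 1, 9 members were called, and without replicate 2, 11. RNA and footprints were made from different dishes in different batches, so the TE values also carry any difference between those cultures, which was not tested.

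**Figure D2:**
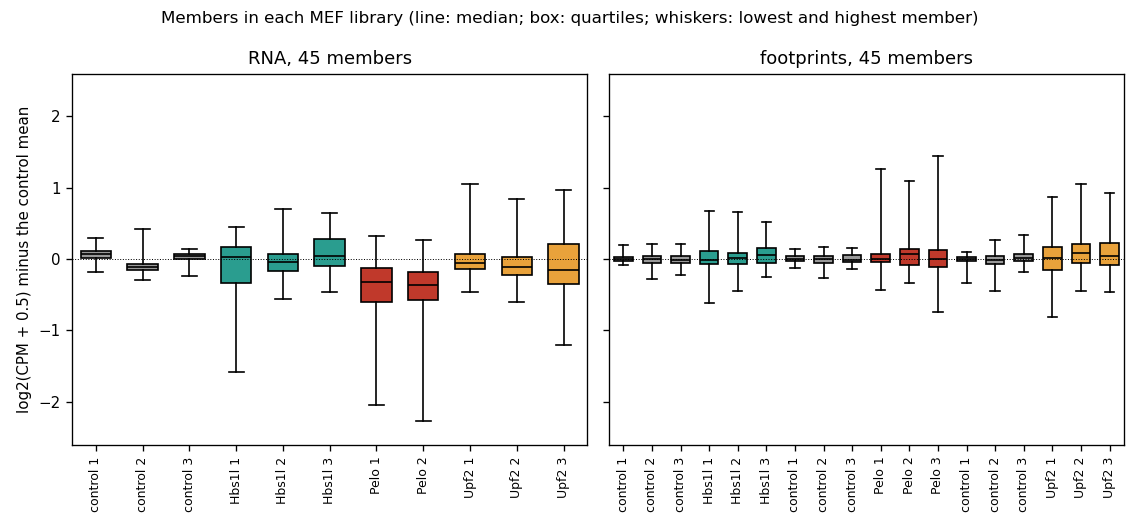
Box plots give, for each MEF library, the log2 deviation of 45 members (log2 of CPM + 0.5) from the mean of that library's controls, with whiskers to the lowest and highest member, for RNA and for footprints. Both *Pelo*-/- RNA libraries sit below 0, with medians of -0.32 and -0.36, and the *Pelo*-/- footprint libraries have medians between -0.00 and 0.07.

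All 7 alpha subunits fell in *Pelo*-/- RNA, with a median log2 fold change of -0.70 and a range of -0.99 to -0.34. *Psma1* had 58.76 and 52.55 CPM against 121.2, 102.6 and 110.7 in the controls (-0.99 ± 0.09 SE, adjusted p = 0.001). *Psma2* had 130.0 and 138.6 CPM against 242.9, 199.6 and 237.6 (-0.74 ± 0.1, adjusted p = 0.0029), but its transcript has one of the lowest GC contents of the group (39.4%) and its value became 0.09 with offsets for GC content. Neither gene's mutant libraries overlapped its controls. In footprints *Psma1* did not move, with 241.5, 223.7 and 215.6 CPM against 231.7, 228.4 and 251.9. *Psma5*, at 0.37 ± 0.12 (adjusted p = 0.035), was the only alpha subunit called in footprints. TE rose for 6 of the 7, with a median of 0.81, among them *Psma1* (0.94 ± 0.12, adjusted p = 6.7e-05) and *Psma3* (0.90 ± 0.13, adjusted p = 0.00013). The *Psma3* RNA includes the retained-intron transcript Psma3-203, itself called lower by edgeR (-0.73, adjusted p = 0.035).

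Of the 7 beta subunits, 5 fell in RNA, with a median of -0.35. The catalytic subunits were among them. *Psmb5*, the chymotrypsin-like site, had 166.9 and 163.7 CPM against 229.5, 188.2 and 222.4 (-0.35 ± 0.1, adjusted p = 0.031). *Psmb6*, the caspase-like site, had 177.3 and 168.3 CPM against 227.8, 195.0 and 244.9 (-0.35 ± 0.1, adjusted p = 0.04). *Psmb7*, the trypsin-like site, had 186.8 and 188.5 CPM against 253.0, 211.8 and 239.1 (-0.31 ± 0.09, adjusted p = 0.038). In each of the 3 genes the mutant libraries lay below all controls, but all 3 calls were lost without either *Pelo* library (adjusted p of 0.16 to 0.25) and without control 3, and those of *Psmb6* and *Psmb7* also without control 1. Their footprints were not called, at -0.15 (adjusted p = 0.089), 0.07 (adjusted p = 0.47) and -0.15 (adjusted p = 0.096). TE rose for 5 of the 7 beta subunits, including *Psmb6* (0.44 ± 0.13, adjusted p = 0.015), and was not called for *Psmb5* (0.22, adjusted p = 0.15) or *Psmb7* (0.17, adjusted p = 0.25).

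Of the regulatory particle, 3 of 6 ATPases and 5 of 11 non-ATPase subunits fell in RNA, with medians of -0.27 and -0.21. *Psmc6*, an ATPase of the base, showed the largest RNA change of the 44 members tested. It had 23.2 and 19.68 CPM against 95.69, 97.48 and 97.43 in the controls, 4.469-fold less (-2.16 ± 0.1, adjusted p = 0.0004). In footprints it stood at 289.3, 282.4 and 271.0 CPM against 283.2, 268.5 and 287.6, and the mutant and control libraries overlapped (0.01 ± 0.06, adjusted p = 0.94). Its TE was 2.19 ± 0.11 higher (adjusted p = 1e-07). With offsets for GC content the RNA change was -1.10 (adjusted p = 0.00063) and the TE change 1.21 (adjusted p = 1e-05). *Psmc6* lies on chr14:45329788-45349705, plus strand (GRCm38), and its transcript has the lowest GC content of the members tested, 37.0%.

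*Psmd6*, a scaffold subunit of the lid, had 56.15 and 50.78 CPM in RNA against 116.0, 102.8 and 104.5 (-0.99 ± 0.09, adjusted p = 0.00087), while its footprints overlapped the controls at 262.9, 248.7 and 253.4 CPM against 276.7, 245.4 and 285.5. *Psmd14*, the deubiquitinase of the lid, fell by 0.72 in RNA (adjusted p = 0.0022). The scaffold subunit *Psmd2* and *Psmd8* were level in RNA (-0.01 and 0.03). *Psmd8* was instead the single core or regulatory subunit to fall in footprints, at 346.5, 375.8 and 279.4 CPM against 480.8, 458.1 and 464.0 (-0.49 ± 0.1, adjusted p = 0.0028), and the single member whose TE fell (-0.49 ± 0.15, adjusted p = 0.017). Over the 31 subunits of the 26S complex, 20 fell and 0 rose in RNA, 1 rose and 1 fell in footprints, and all 31 footprint fold changes lay within 0.5 of 0 on the log2 scale.

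**Figure D3:**
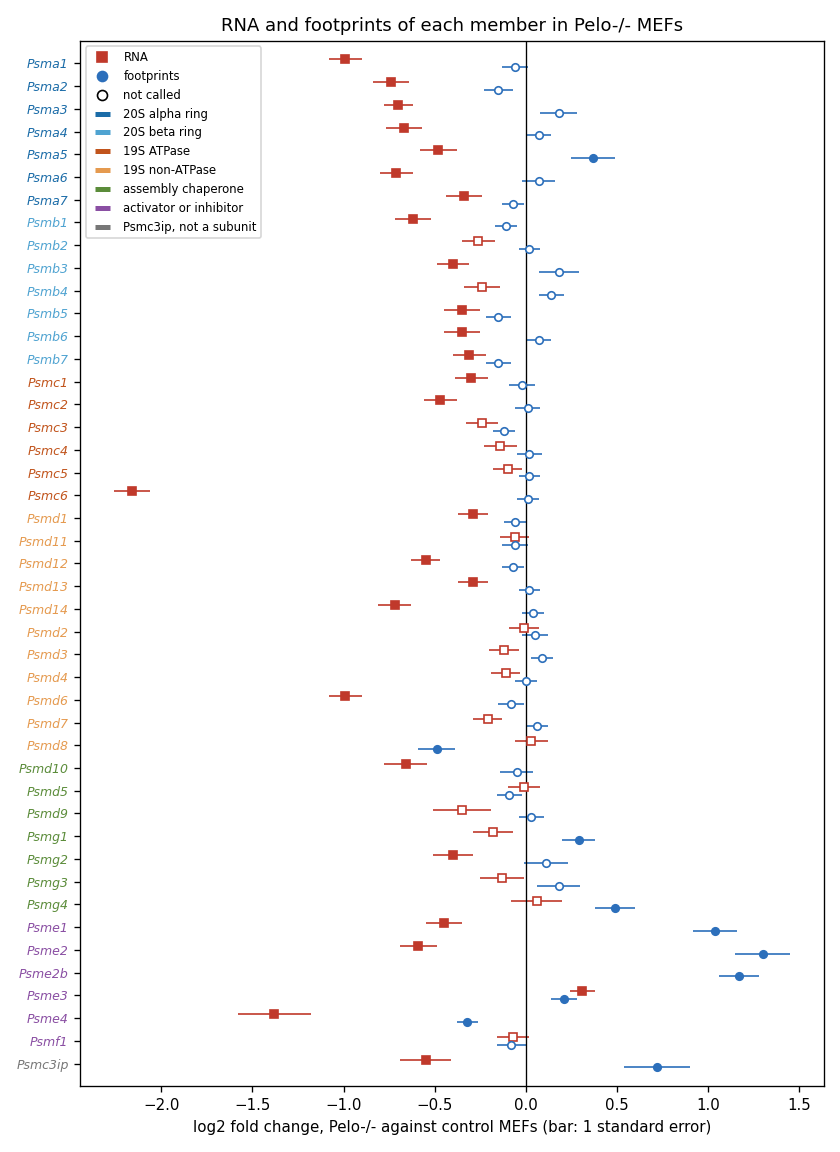
For each member, squares give the RNA and circles the footprint log2 fold change of *Pelo*-/- against control MEFs, with bars of 1 SE and filled symbols for values called at an adjusted p at or under 0.05, grouped by role. Squares of the alpha ring lie from -0.99 to -0.34 and *Psmc6* reaches -2.16, while circles of the 26S subunits lie between -0.49 and 0.37 and those of *Psme1*, *Psme2* and *Psme2b* lie above 1.

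Of the 6 activators and inhibitors, 4 rose and 1 fell in *Pelo*-/- footprints. *Psme1* and *Psme2* encode PA28 alpha and beta, the interferon-inducible caps of the core, and *Psme2b* is a copy of *Psme2*. *Psme1* (chr14:55578123-55581529, plus strand) had 64.83, 53.3 and 75.18 CPM against 34.11, 30.25 and 30.16 (1.04 ± 0.12, adjusted p = 0.00011). *Psme2* (chr14:55587441-55591113, minus strand) had 19.59, 18.13 and 23.4 CPM against 9.207, 6.894 and 8.871 (1.30 ± 0.15, adjusted p = 8.3e-05). *Psme2b* (chr11:48945354-48946190, minus strand) had 28.87, 23.47 and 26.65 CPM against 12.01, 11.27 and 11.89 (1.17 ± 0.11, adjusted p = 2.5e-05). Each mutant library of these 3 genes was above every control, and *Psme2* and *Psme2b* share so much sequence that their footprints cannot be told apart with certainty. Their RNA went the other way. *Psme1* RNA stood at 33.91 and 30.93 CPM against 44.86, 41.68 and 47.89 (-0.45 ± 0.1, adjusted p = 0.013), and *Psme2* RNA at 31.38 and 29.98 CPM against 47.4, 41.88 and 50.96 (-0.59 ± 0.1, adjusted p = 0.0064). TE was 1.51 ± 0.17 and 1.92 ± 0.19 higher (adjusted p = 2.3e-05 and 7.1e-06). *Psme2b* RNA, at most 0.76 CPM in controls, was too low to be tested in *Pelo*-/-.

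Markers of interferon signalling and of macrophages were also higher in these footprint libraries. All 10 interferon-induced genes of the list rose (median 2.43), and their summed level was 2554 to 2697 CPM against 822.2 to 837.0. Among them, *Psmb8*, the immunoproteasome counterpart of *Psmb5*, had 60.9, 48.69 and 78.96 CPM against 2.894, 2.028 and 1.597 (log2 fold change 4.86). *Psmb9* and *Psmb10* rose by 4.17 and 2.03. In the *Pelo*-/- RNA libraries 0 of 9 interferon-induced genes were called (median 0.06, summed 268.4 to 271.0 CPM against 234.5 to 259.4), with *Psmb8* at 1.393 and 1.038 CPM against 1.27, 1.36 and 1.637. All 5 macrophage markers rose in footprints, from a summed 86.29 to 121.1 CPM in controls to 371.7 to 528.2, with none at 0, and 2 of 5 rose in RNA, from 68.18 to 93.74 CPM to 97.28 to 137.9. Whether these cells or this signalling had a part in the *Psme1* and *Psme2* values was not tested.

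Of the remaining activators and inhibitors, *Psme4*, which encodes the nuclear activator PA200, fell in both assays, *Psme3* rose in both and *Psmf1* was called in neither. *Psme4* RNA stood at 34.09 and 21.54 CPM against 69.64, 81.84 and 67.61 (-1.38 ± 0.2, adjusted p = 0.0034), and its footprints at 122.9, 118.5 and 117.7 CPM against 147.0, 147.5 and 153.7 (-0.32 ± 0.06, adjusted p = 0.0018). TE of *Psme4* was 1.08 ± 0.19 higher (adjusted p = 0.00065). *Psme3*, which encodes PA28 gamma, was the single member called higher in RNA, at 167.9 and 160.6 CPM against 135.2, 128.8 and 137.5 (0.31 ± 0.07, adjusted p = 0.019). That call was lost without either *Pelo* library and with GC offsets (0.18, adjusted p = 0.11). In footprints *Psme3* rose by 0.21 ± 0.07 (adjusted p = 0.039). *Psmf1*, the inhibitor PI31, had values of -0.07 in RNA, -0.08 in footprints and 0.00 in TE.

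Among the assembly chaperones, 2 of 7 fell in RNA and 2 of 7 rose in footprints. *Psmd10*, the base chaperone gankyrin, fell by 0.66 in RNA (adjusted p = 0.0068). *Psmg4*, a chaperone of the alpha ring, had 15.78, 15.04 and 17.41 footprint CPM against 11.75, 11.35 and 11.27 (0.49 ± 0.11, adjusted p = 0.0045). *Psmg1*, of the same assembly pathway, had 50.72, 51.54 and 57.84 CPM against 43.31, 39.33 and 48.26 (0.29 ± 0.09, adjusted p = 0.027). The mutant libraries of both genes lay above all their controls. *Psmc3ip* fell by 0.55 in RNA (adjusted p = 0.024) and rose by 0.72 ± 0.18 in footprints (adjusted p = 0.0089), from 4.559, 3.325 and 4.524 CPM to 6.072, 6.973 and 7.254.

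Within RNA the fold changes of members followed the GC content of their main transcript. The rank correlation over members was 0.60 in *Pelo*-/- (n = 44), 0.68 in *Hbs1l*-/- and 0.56 in *Upf2*-/- MEFs (n = 45 each), and 0.38, 0.33 and 0.36 over all genes with a value. In *Pelo*-/- footprints it was 0.22 over members and 0.06 over all genes. These are correlations across genes of the same libraries, and their source was not tested. The RNA comparisons of the genotypes share their control libraries, so their correlations are not independent of one another. Members had a median GC of 49.8% and all genes 50.7%. With a GC offset fitted for each RNA library, 28 members fell in *Pelo*-/- RNA and 0 rose, 21 of which were called without the offset.

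**Figure D4:**
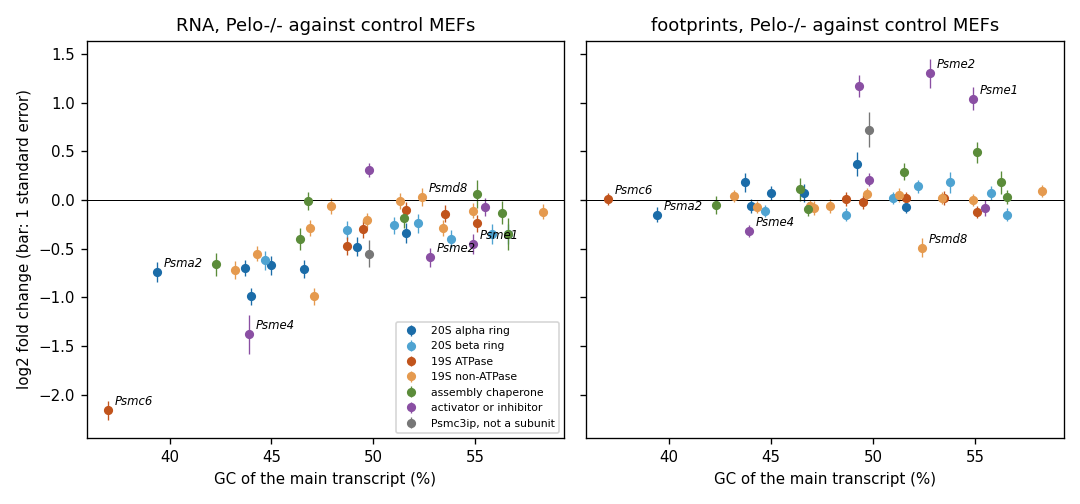
Each point is a member, with the GC content of its main transcript (%) on the x axis and the log2 fold change of *Pelo*-/- against control MEFs on the y axis, for RNA and for footprints. In RNA, *Psmc6* lies lowest at 37.0% GC and -2.16, and values rise with GC (rank correlation 0.60). In footprints all points lie within 0.5 of 0 except *Psme1*, *Psme2*, *Psme2b* and *Psmc3ip*, which lie above.

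The other genes of the pathway split in *Pelo*-/- RNA. Of 25 genes for assembly, ubiquitin supply, shuttling and transcriptional control, 5 rose and 9 fell, with a median of -0.08. *Pomp*, the maturation chaperone of the core, fell from 129.7, 101.4 and 122.2 CPM to 56.7 and 69.73 (-0.88, adjusted p = 0.0037). *Sem1*, a small subunit of the lid outside the symbol rule, fell from 101.5, 89.44 and 111.8 CPM to 52.12 and 62.59 (-0.80, adjusted p = 0.004). Both genes did so alongside the core subunits, and neither changed in footprints (-0.08 and -0.02). *Nfe2l1*, the regulator named above, rose in RNA from 159.4, 169.8 and 174.8 CPM to 243.6 and 249.1 (0.57, adjusted p = 0.0034) and stood at 0.00 in footprints. The ubiquitin receptor *Adrm1* was called in neither (-0.09 and 0.26, adjusted p = 0.4 and 0.092). Of 24 pathway genes tested in footprints, 6 rose and 5 fell, and TE rose for 9 and fell for 5. The shares of all genes called in RNA, footprints and TE are those given above with the members. The footprint counts lie near those shares.

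In *Upf2*-/- MEFs, 12 of 45 members rose and 4 fell in footprints (median 0.06), where 22.3% of all genes were called higher and 21.1% lower. In RNA 2 rose and 1 fell (median -0.12), where 13.2% were called higher and 6.76% lower. TE rose for 6 members and fell for 1, beside 8.47% and 11.8% of all genes. Without control replicate 1, 10 members were called in footprints. In RNA, 7 were called without *Upf2* replicate 1, and in TE 14 without that library. The TE count was 3 without footprint control 2 or RNA control 3, and 4 without footprint control 1 or footprint *Upf2* replicate 2.

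Both members called higher in *Upf2*-/- RNA also rose in footprints. *Psmf1* (chr2:151715812-151744186, minus strand) had 68.39, 70.22 and 76.53 RNA CPM against 43.82, 38.4 and 41.99 (0.78 ± 0.11, adjusted p = 0.00068). Its footprints stood at 64.84, 56.67 and 67.89 CPM against 46.32, 49.93 and 43.58 (0.43 ± 0.09, adjusted p = 0.0021). *Psmg3*, a chaperone of the alpha ring (chr5:139823592-139826885, minus strand), had 32.63, 36.13 and 39.34 RNA CPM against 22.24, 17.72 and 20.12 (0.84 ± 0.14, adjusted p = 0.0018). Its footprints were 16.79, 22.63 and 17.96 CPM against 8.327, 12.83 and 11.19 (0.84 ± 0.17, adjusted p = 0.0021). In both genes and both assays the mutant libraries lay above every control, and TE was not called (-0.36 and -0.01, adjusted p = 0.09 and 0.98). The single fall in RNA was *Psma6*, with 114.4, 102.8 and 82.46 CPM against 152.0, 126.7 and 138.8 (-0.49 ± 0.13, adjusted p = 0.028), and it was lost when *Upf2* replicate 2 or 3 or control 1 or 3 was left out.

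The largest footprint increase in *Upf2*-/- was that of *Psmc3ip*, from 3.359, 3.902 and 5.386 CPM to 7.98, 7.338 and 8.299 (0.90 ± 0.2, adjusted p = 0.004). *Psme2* rose by 0.58 ± 0.15 (adjusted p = 0.0093), with 14.3, 13 and 10.48 CPM against 8.537, 7.804 and 9.023, and *Psme1* by 0.35 ± 0.1 (adjusted p = 0.015), a call lost without *Upf2* replicate 1 or 2 or control 1. Their RNA was not called (-0.28 for *Psme1* and -0.29 for *Psme2*, adjusted p = 0.11 each), and TE rose by 0.61 and 0.85 (adjusted p = 0.012 and 0.0049). Beside them, 7 of 9 interferon-induced genes rose in these footprint libraries and 0 of 10 were called in RNA by edgeR, with summed footprint levels of 676.5 to 1126 CPM against 798.3 to 846.5 that overlapped. Of the 5 macrophage markers 2 rose, with a summed 115.8 to 145.4 CPM against 87.37 to 116.3, and the part of either list in the *Psme* values was not tested. *Psmd9*, a base chaperone, rose by 0.42 ± 0.1 (adjusted p = 0.006), from 32.89, 36.71 and 28.75 CPM to 46.88, 43.14 and 41.22. Of the regulatory particle, *Psmd1*, its largest scaffold, rose by 0.29, from 362.5, 358.3 and 378.6 CPM to 455.4, 447.0 and 442.6.

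The 4 members that fell in *Upf2*-/- footprints were 3 beta subunits and *Psmd8*. *Psmb5* had 42.89, 66.04 and 54.83 CPM against 75.5, 76.25 and 75.89 (-0.46 ± 0.12, adjusted p = 0.0089), with every mutant library below every control. Its RNA was not called (-0.18 ± 0.12, adjusted p = 0.3). *Psmb1* and *Psmb2* fell by 0.21 each (adjusted p = 0.015 and 0.017). The beta subunit *Psmb4* was instead called higher (0.27 ± 0.07, adjusted p = 0.0094). *Psmd8* stood at 320.2, 345.7 and 354.7 CPM against 497.5, 451.6 and 470.9 (-0.47 ± 0.06, adjusted p = 0.00014), beside 552.7, 475.9 and 608.0 RNA CPM against 506.9, 434.0 and 441.6 (0.23 ± 0.13, adjusted p = 0.23), and its TE fell by 0.72 (adjusted p = 0.0051).

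Since UPF2 acts in NMD, the transcripts of the members were also tested singly. The 47 genes have 257 annotated transcripts, of which 104 are protein_coding, 87 retained_intron, 38 processed_transcript and 27 NMD targets by annotation. Of 147 tested in *Upf2*-/- MEFs, 11 rose and 1 fell, where 4.37% of all transcripts were called higher and 0.985% lower. The filter on low values ran within each comparison, and 12 NMD and 41 retained-intron transcripts passed it here, against 8 and 26 in *Pelo*-/- and 10 and 28 in *Hbs1l*-/-. A transcript that passed only through its values in the mutants had to differ. Of the 27 annotated NMD transcripts 2 were called higher, of the 87 with a retained intron 7 were called higher and 1 lower, and of the 104 coding ones 1 was called higher. No share over all transcripts of the same type is given here, so these counts do not set the members apart from their type. The share of NMD transcripts in member TPM, given above for *Upf2*-/- and control libraries, was 2.411 to 2.527% in *Pelo*-/- and *Hbs1l*-/- ones.

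Of *Psmf1*, a coding, an NMD and a retained-intron transcript rose. Psmf1-201, which is coding, stood at 10.95, 10.78 and 9.799 TPM against 5.099, 5.243 and 5.814 (0.92, adjusted p = 0.0088), and Psmf1-206, an NMD transcript, at 1.31, 2.294 and 2.161 TPM against 0.1363, 0.1489 and 0.1504 (3.72, adjusted p = 0.0038). Psmd2-206, the other NMD transcript called, went from 0.5103, 0.4117 and 0.1697 TPM to 3.738, 1.898 and 2.525 (2.88, adjusted p = 0.032), while the gene sum of *Psmd2* was not called. Further transcripts called higher came from core and regulatory subunits. Psma7-202, with a retained intron, rose from 1.474, 0.9182 and 0.5163 TPM to 7.512, 6.583 and 5.386. Psmc4-205, also with a retained intron, rose from 1.0, 2.424 and 2.239 TPM to 12.28, 8.652 and 10.61. Psmd4-207, a processed transcript, rose from 1.025, 0.4737 and 0.6514 TPM to 8.07, 8.8 and 6.091. Some retained-intron forms were at or near 0 in one group, so that they passed the filter through the other group and their call is no more than a description. Psmc4-202 was listed at 0 TPM in all controls and at 0.5088, 0.5823 and 0.5031 in the mutants, and Psme1-203 at 0, 0 and 0.03747 TPM against 1.452, 2.216 and 1.821. The transcript that fell, Psme2-206, stood at 5.889, 6.692 and 1.491 TPM in controls and at 0, 3.303e-07 and 6.209e-06 in the mutants. These are kallisto estimates between overlapping isoforms, whose assignment error was not modelled. Without any one of the *Upf2* libraries 3 transcripts were called, and without control 2, 4, while DESeq2 called 33. In *Pelo*-/- 0 transcripts rose and 7 of 114 fell by edgeR, where 0.722% and 1.64% of all transcripts were called higher and lower. DESeq2 called several times as many, as the last section gives. The 7 were led by the coding Psmc6-201 (54.4, 66.09 and 65.68 TPM to 18.43 and 13.22, -2.18, adjusted p = 0.027). These 7 calls were not held in any fit with 1 library left out. In *Hbs1l*-/-, 0 of 126 were called by edgeR, with 15 at an unadjusted p under 0.05 and 7 by DESeq2, where 1.31% of all transcripts were called in either direction.

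In *Hbs1l*-/- MEFs, 4 of 45 members rose and 2 fell in footprints (median 0.01), where 17.4% of all genes were called higher and 16.7% lower. In RNA 5 rose and 2 fell (median -0.00), where 12.7% were called higher and 10.4% lower. The footprint count was 3 without *Hbs1l* replicate 1 or control 1, and the RNA count was 4 without *Hbs1l* replicate 2 and 3 without control 2. *Psmg1* was called in both assays, with 54.41, 52.49 and 55.6 footprint CPM against 46.27, 38.46 and 39.73 (0.39 ± 0.09, adjusted p = 0.0041) and 38.75, 38.74 and 40.97 RNA CPM against 29.95, 26.04 and 31.21 (0.44 ± 0.1, adjusted p = 0.017). *Psmg4* rose in RNA by 0.64 ± 0.13 (adjusted p = 0.01), from 5.784, 5.28 and 6.109 CPM to 7.995, 9.639 and 9.206. The mutant libraries of these chaperones did not overlap their controls.

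*Psme1* and *Psme2* rose in *Hbs1l*-/- RNA and were not called in footprints. *Psme1* RNA was 60.25, 62.34 and 58.72 CPM against 44.86, 41.68 and 47.89 (0.43 ± 0.09, adjusted p = 0.012), and *Psme2* RNA 63.92, 70.12 and 59.31 CPM against 47.4, 41.88 and 50.96 (0.46 ± 0.11, adjusted p = 0.017). Without control 2 both calls were lost (adjusted p = 0.051 and 0.066). Their footprints differed by 0.23 ± 0.09 and 0.34 ± 0.15 (adjusted p = 0.069 and 0.11). Footprints counted on *Psme2b* rose by 0.64 ± 0.12 (adjusted p = 0.0013), from 10.64, 11.76 and 10.93 CPM to 18.05, 17.77 and 16.09. They cannot be told apart from those of *Psme2* with certainty. *Psme2b* RNA was at most 0.76 CPM in controls and 0.3549 CPM in *Hbs1l*-/-. Interferon-induced genes moved with these *Psme* genes. In RNA 10 of 10 were higher, with a summed 355.6 to 482.6 CPM against 234.5 to 259.4. In footprints 7 of 9 were higher, with 904.3 to 1088 CPM against 793.6 to 844.0. Of the 5 macrophage markers, 4 rose in RNA, with a summed 126.3 to 166.9 CPM against 68.18 to 93.74, and all 5 rose in footprints, with 158.9 to 214.9 CPM against 89.06 to 119.4. Their part in the *Psme* values was not tested.

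*Psmd8* was lower in *Hbs1l*-/- footprints as well, at 314.3, 353.3 and 404.9 CPM against 499.4, 469.9 and 475.1 (-0.43 ± 0.08, adjusted p = 0.0012), and its RNA was 364.6, 329.8 and 422.5 CPM against 506.9, 434.0 and 441.6 (-0.31 ± 0.12, adjusted p = 0.085). It thus fell in the footprints of all 3 genotypes, each measured against nearly the same control libraries. The other member to fall in *Hbs1l*-/- footprints was the catalytic subunit *Psmb6*. It had 194.4, 186.9 and 182.1 CPM against 209.2, 229.1 and 205.5 (-0.19 ± 0.07, adjusted p = 0.042). *Psma4*, an alpha subunit, fell in RNA by 0.59 ± 0.13 (adjusted p = 0.011), from 128.8, 122.0 and 141.6 CPM to 70.54, 95.6 and 94.85. *Psmc6* RNA spread widely, at 31.9, 65.39 and 76.31 CPM against 95.69, 97.48 and 97.43, and did not pass the test (-0.74 ± 0.25, adjusted p = 0.059). In TE no member was called by edgeR, with 9 of 45 at an unadjusted p under 0.05 and 2 called by DESeq2, and 0.0336% of all genes were called in either direction.

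**Figure D5:**
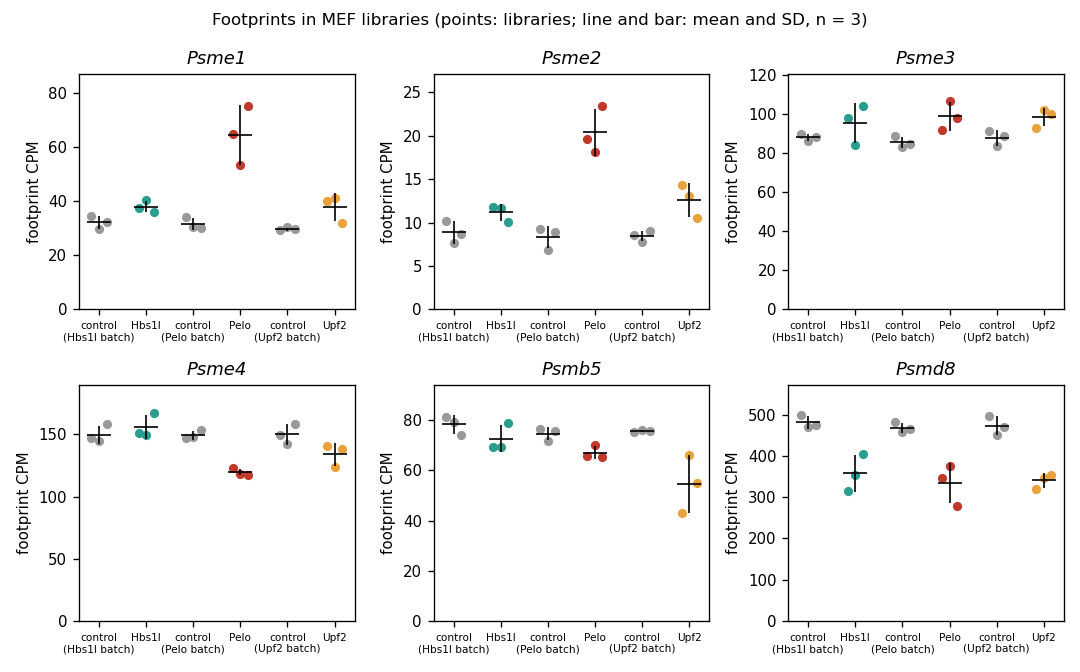
Points give footprint CPM in each MEF library for *Psme1*, *Psme2*, *Psme3*, *Psme4*, *Psmb5* and *Psmd8*, with the mean and SD of 3 libraries, for each genotype beside the control libraries of its own batch. *Psme1* and *Psme2* are highest in *Pelo*-/-, *Psmb5* is lowest in *Upf2*-/- (42.89 to 66.04), and *Psmd8* is below its controls in all 3 genotypes.

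In RNA the genotypes could be set against each other within 1 batch. Of 44 members, 25 were lower and 1 higher in *Pelo*-/- than in *Hbs1l*-/- RNA (median -0.32), where 16.3% of all genes were called lower and 18.9% higher. With either *Pelo* library left out, 7 or 4 members were called. The lower ones included *Psmc6* (-1.37, adjusted p = 0.013), *Psme2* (-1.01, adjusted p = 0.00054), *Psme1* (-0.84, adjusted p = 0.00072) and *Psmd6* (-0.77, adjusted p = 0.0025). *Psmd8* was the one that was higher (0.38, adjusted p = 0.031). In the same contrast 9 of 10 interferon-induced genes were lower (median -1.20), and their part in the *Psme* values was not tested. Against *Pelo*-/-, 15 of 45 members were higher and 1 lower in *Upf2*-/- RNA (median 0.28), where 15.4% of all genes were called higher and 13.5% lower. The count of 16 became 6 without *Pelo* replicate 1, 4 without replicate 2 and 27 with GC offsets. The 15 include *Psme2b* (1.99, adjusted p = 0.04), which stood at 1.459, 0.5414 and 1.013 CPM against 0.3665 and 0.08651 and did not pass the filter in *Pelo*-/- against control RNA, so that its direction follows from the filter. *Psmc6* was higher by 1.52 (adjusted p = 0.0033), *Psme4* by 0.94 (adjusted p = 0.017), *Psmg3* by 0.94 (adjusted p = 0.0015) and *Psmf1* by 0.82 (adjusted p = 0.0011). *Psme3* was lower (-0.46, adjusted p = 0.0063). Beside them, 6 of 8 fibroblast markers were lower in *Upf2*-/- (median -0.60). Of 10 interferon-induced genes 2 were higher and 2 lower, and 1 of 5 macrophage markers was lower. The part of these lists in the member values was not tested.

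In footprints, where each genotype was first set against its own controls, the effects of *Pelo* and *Hbs1l* loss differed for 3 of 45 members, beside 5.54% of all genes in either direction. *Psme1* and *Psme2* had larger effects in *Pelo*-/- (by 0.81 ± 0.16 and 0.97 ± 0.21, adjusted p = 0.0089 and 0.017), and *Psme4* a lower one (-0.38 ± 0.09, adjusted p = 0.02). In this test 8 of 10 interferon-induced genes (median 1.57) and 3 of 5 macrophage markers also had larger effects in *Pelo*-/-. The count was 1 without control 1 of the *Hbs1l* batch. Between *Upf2* and *Pelo* the effects differed for 5 of 45, beside 13% of all genes. *Psme2b*, *Psme2* and *Psme1* had lower effects in *Upf2*-/- (-0.95, -0.73 and -0.69, adjusted p = 0.0038, 0.035 and 0.017), and *Psmf1* and *Psmd1* higher ones (0.52 and 0.35, adjusted p = 0.012 and 0.0051). In that test 8 of 10 interferon-induced genes and 5 of 5 macrophage markers had lower effects in *Upf2*-/- as well, and the part of these lists in the *Psme* values was not tested. The count was 9 without control 2 of the *Upf2* batch. These tests treat the near-identical controls as separate libraries.

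The tissues of *Hbs1l* mutants gave no call among the members. In embryos 0 of 45 were called by edgeR (median -0.08), with 7 at an unadjusted p under 0.05 and 2 called by DESeq2, where 1.87% of all genes were called in either direction. Without *Hbs1l* embryo replicate 1, 1 member rose and 7 fell. The lowest values were those of *Psma3*, at 62.62, 32.37 and 35.52 CPM against 92.86, 65.41 and 80.84 (-0.85 ± 0.24, adjusted p = 0.084), and *Psmb3*, at 66.82, 35.76 and 29.95 CPM against 92.86, 78.74 and 72.38 (-0.85 ± 0.25, adjusted p = 0.098). *Psma5* followed (-0.79 ± 0.28, adjusted p = 0.15). *Psmg3* stood at 20.33, 20.54 and 20.2 CPM against 36.77, 34.16 and 33.82 (-0.78 ± 0.19, adjusted p = 0.057). The mutant libraries of *Psma3*, *Psmb3* and *Psmg3* lay below all the controls. Whether near-identical copies bear on the values of *Psma3*, *Psmb3* and *Psma5* was not tested. The catalytic subunits were not called (*Psmb5* -0.11, *Psmb6* -0.29, *Psmb7* -0.01). In the same libraries all 4 trophoblast markers tested rose, but they were so low in controls that they passed the filter through the mutants. Their calls are therefore no more than a description. The 6 trophoblast markers summed to 3.79 to 6.299 CPM in controls and 79.97 to 785.2 in mutants. The highest sum was in replicate 3, with *Prl4a1* at 415.8 CPM against 26.7 and 25.85. The 6 embryonic markers summed to 2982 to 8167 CPM against 10990 to 13960, with 2 called lower. Most of this sum was the globins *Hbb-bh1* and *Hba-x* (control means 5904 and 6080 CPM). *T* was higher in each mutant library than in any control. The part of either list in the member values was not tested.

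In cerebella 0 of 46 members were called by edgeR (median -0.05), with 3 at an unadjusted p under 0.05, where 0.0624% of all genes were called in either direction. *Psmg4* had 26.23, 27.27 and 34.94 CPM against 14.72, 19.95 and 26.03 (0.54 ± 0.21, adjusted p = 0.32), with mutant libraries above all controls by a narrow margin. *Psme1* had 66.84, 51.73 and 58.02 CPM against 44.24, 50.06 and 44.14 (0.36 ± 0.13, adjusted p = 0.28). *Psmb5* overlapped its controls, at 84.15, 86.86 and 84.83 CPM against 76.07, 85.46 and 89.36. All 31 subunits of the 26S complex lay within 0.5 of 0 on the log2 scale. These libraries mix granule cells, in which Atoh-Cre targets the remaining allele, with other cells, which lack one. How complete the deletion was in granule cells was not tested. Mean *Hbs1l* footprints were 14.33 CPM in mutant cerebella against 40.54 in controls.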

How the data were processed

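Members and gene lists were chosen with earlier results of these data known. The authors clipped footprint reads, removed rRNA reads with Bowtie2 2.2.3, aligned to mm10 with HISAT2 2.1.0 and counted reads over coding sequence with featureCounts. The deposited footprint tables hold these raw counts per gene. For RNA the authors ran kallisto 0.42.4, and the deposited files hold estimated counts and TPM per transcript. The RNA kit keeps strand. The kallisto settings listed by the paper hold no strand option, and it names no strand setting for featureCounts. Overlapping antisense genes therefore cannot be separated.

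Estimated counts were rounded and summed per gene. Counts were tested with edgeR 4.0.16 (R 4.3.3, quasi-likelihood, TMM factors, filterByExpr, Benjamini-Hochberg over all genes, threshold 0.05, two-sided), and DESeq2 1.42.0 was an alternative. Histone genes, which the authors excluded, did not enter the tests on footprints or TE. TE was the assay by genotype interaction, with TMM factors within each assay. Only the mutant libraries of a comparison and their controls entered its fit. CPM values are per 1000000 counts, and levels per kilobase used union coding length (GRCm38). The scripts were checked on simulated counts. Named members were up to 5 called members by absolute log2 fold change in each direction of a comparison, the catalytic subunits, activators, tissue-restricted members, *Psmc3ip* and the highest and lowest levels per length. *Psma2*, *Psma3*, *Psma5*, *Psmb3*, *Psmd2*, *Psmd14*, *Psmc6* in *Hbs1l*-/- and transcripts other than the largest changes were named after their values were seen. Alternatives were RLE factors, no filter, replicate numbers as a block, protein_coding transcripts only, each library left out, a direct contrast of mutants and, chosen after seeing the data, GC-corrected offsets (lowess span 0.3).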

Additional observations from a re-analysis of the deposited data

Results flagged for a closer look

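The results below were taken up because the effects of 2 genotypes differed in a test of the difference itself. In RNA, 26 members differed between *Pelo*-/- and *Hbs1l*-/- MEFs, and 16 between *Upf2*-/- and *Pelo*-/- MEFs. Of all genes, 18.9% were called higher and 16.3% lower in the first contrast, and 15.4% and 13.5% in the second. The first count was 7 or 4 and the second 6 or 4 without *Pelo* replicate 1 or 2. In footprints, the effect of *Pelo* loss exceeded that of *Hbs1l* loss by 0.81 (log2) for *Psme1* and 0.97 for *Psme2*, and was lower for *Psme4* (-0.38). The effect of *Upf2* loss was lower than that of *Pelo* loss for *Psme2b* (-0.95), *Psme2* (-0.73) and *Psme1* (-0.69), and higher for *Psmf1* (0.52) and *Psmd1* (0.35). Alongside the *Psme* genes, 8 of 10 interferon-induced genes and 3 of 5 macrophage markers had larger effects of *Pelo* than of *Hbs1l* loss, and 8 of 10 and 5 of 5 had lower effects of *Upf2* than of *Pelo* loss. Mutant groups of 3 libraries, or 2 for *Pelo* RNA, were too small to search for single outlying libraries.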

How the results depend on the processing

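With counts of members called, the numbers that moved by more than 1.5 times were these. In embryos 0 were called, against 2 with DESeq2, 4 without a filter on low counts, 4 with the replicate number as a block, and 0 to 8 with a library left out. In MEF footprints, leaving out a library gave 3 to 6 in *Hbs1l*-/- (6 with all libraries) and 10 to 15 in *Upf2*-/- (16). In RNA, leaving out a library gave 3 to 7 in *Hbs1l*-/- (7), 9 to 30 in *Pelo*-/- (27) and 2 to 7 in *Upf2*-/- (3). The block took *Pelo*-/- RNA from 27 to 16. *Upf2*-/- RNA gave 5 with DESeq2, 5 without the filter, 5 with the block, 5 with protein_coding transcripts only and 8 with GC offsets. Between *Pelo*-/- and *Hbs1l*-/- RNA the range was 4 to 28 (26), and between *Upf2*-/- and *Pelo*-/- RNA 4 to 23 (16), with 27 under GC offsets. TE in *Hbs1l*-/- gave 2 with DESeq2 and 0 to 0 with a library left out, and in *Upf2*-/- 3 to 14 (7). The differences of footprint effects gave 7 (against 3) for *Pelo* and *Hbs1l* and 12 (against 5) for *Upf2* and *Pelo* by direct contrast of the mutants, and 1 to 4 and 4 to 9 with a library left out. Transcript calls gave 7 with DESeq2 in *Hbs1l*-/-, against 0. In *Pelo*-/- they gave 28 with DESeq2, 4 without the filter, 0 with the block and 0 to 0 with a library left out, against 7. In *Upf2*-/- they gave 33 with DESeq2, 0 with the block and 3 to 10 with a library left out, against 12. Under GC offsets *Psma2* in *Pelo*-/- RNA turned from -0.74 to 0.09 (adjusted p = 0.68). The cause of these changes was not tested, beyond the smaller number of libraries in the fits that leave one out. Replicate numbers did not pair the samples: deviations of same-numbered libraries correlated between -0.232 and 0.21, and in no comparison were all above 0.1. Of the medians over members, 189 moved by less than the spread and 1 moved more. Of the values for named members, 2070 kept their direction and their side of the threshold, 142 lost and 23 gained the call, and 1 reversed. With 1 *Pelo* RNA library left out, the lone sample is assumed to vary like the other groups.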
